A study of Mus musculus with 32 samples.

Results

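Collagen chain genes encode the polypeptides that wind into the triple helices of the extracellular matrix. They were taken here as every gene of the count table whose symbol reads Col, a number, the letter a and a number. This choice rested on names alone and used no measured value. It gave 26 of the 17757 genes measured in 32 mRNA libraries, out of 44 mouse collagen chains that RefSeq names. The other 18 chains had no row in the table used here, which the authors had limited to genes with counts in 3 or more replicates of some group.

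The cells were 4T1, a line from a mouse mammary carcinoma, grown as spheroids for 5 days in lung-like medium. Polysome profiling sorts mRNA in a density gradient according to its ribosome load, and each spheroid pellet gave a polysomal library (more than 3 ribosomes) and a sub-polysomal library (fewer than 3). There were 4 conditions with 4 independent pellets each. ASP shSCR carried a non-targeting scramble shRNA and received 700 µM aspartate, and NoASP shSCR carried the same shRNA without added aspartate. ASP shGRIN2D and ASP shDHPS received 700 µM aspartate and carried shRNA against Grin2d, a subunit of the NMDA receptor, or against Dhps, the enzyme that starts the conversion of a lysine of the translation factor eIF5A into hypusine. The medium also contained Matrigel and rat tail collagen I. All lines were polyclonal, transduced with lentiviral pLKO plasmids and selected with puromycin. Libraries held 12870563 to 25639437 counts (median 18168765).

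Every collagen chain carries at least one collagenous stretch in which glycine recurs at a fixed spacing, in repeats written Gly-X-Y, and proline is frequent in between. Families differ in what they build. Fibrillar chains (types I, II, III, V, XI, XXIV and XXVII) form the banded fibrils of connective tissue, type IV chains form the network of basement membranes, type VI chains form beaded filaments, and type VII forms the anchoring fibrils below epithelia. Runs of proline slow the ribosome, and hypusinated eIF5A is known to relieve such stalls, which makes collagen mRNAs a natural set to look at in spheroids that differ in Dhps. The chains are also known targets of TGF-β, and collagen in the lung is produced mainly by fibroblasts, although epithelial cells make the type IV network.

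The feature of the coding sequence at issue is shown for 4 chains, chosen as the most abundant chain (Col18a1), the most abundant basement membrane chain (Col4a1), a type VI chain that the study also stained in metastases (Col6a1) and the most abundant chain that was lower in the polysomal fraction (Col7a1). Each line is 20 codons (60 bases, 5′ to 3′) of the GENCODE M21 coding sequence, taken where the codons for proline and glycine are dense. Capitals mark proline-proline-glycine codons (CCN CCN GGN).
Col18a1: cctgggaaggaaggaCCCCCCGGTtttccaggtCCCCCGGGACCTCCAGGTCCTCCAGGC
Col4a1: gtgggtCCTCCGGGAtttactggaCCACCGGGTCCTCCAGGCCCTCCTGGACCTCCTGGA
Col6a1: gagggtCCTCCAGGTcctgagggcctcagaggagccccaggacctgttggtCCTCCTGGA
Col7a1: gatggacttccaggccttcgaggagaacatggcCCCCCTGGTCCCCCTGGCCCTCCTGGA
In these stretches, codons 961 to 980 of Col18a1 held 4 such triplets, codons 196 to 215 of Col4a1 held 5, codons 480 to 499 of Col6a1 held 2 and codons 1802 to 1821 of Col7a1 held 3. In GRCm38, the build of that annotation and not the GRCm39 build of the counts, Col18a1 lies at chr10:77052178-77166548, Col4a1 at chr8:11198423-11312826, Col6a1 at chr10:76708792-76726168 and Col7a1 at chr9:108953586-108984875.

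Over whole coding sequences the same feature was shared by all 13 chains with a mean of at least 1 CPM (counts scaled to a library of 1e6 counts). Proline codons made up 8% (Col6a1) to 23.5% (Col4a5) of their codons with a median of 16.1%, whereas the median over the 13295 genes of the table with a complete coding sequence was 5.52%. Glycine codons had a median of 24.5% in these chains and of 6.29% in all genes. The proline-proline-glycine triplet occurred 6 times in Col6a2, the fewest, and 74 times in Col4a5, the most, with a median of 37 over the 13 chains and of 0 over all genes. At least 6 of them were found in 0.504% of all genes. Runs of 3 prolines (CCN CCN CCN) were rare here, with 0 in the median chain and 3 in Col18a1. The transcripts were long, with a median of 6048 nt against 3044 nt over all genes. Type IV chains also lie head to head in the genome. The starts of Col4a1 and Col4a2 are 21 bases apart on opposite strands, and those of Col4a6 and Col4a5 are 1343 bases apart (RefSeq, GRCm38.p6).

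One library, a polysomal one, stood apart from its group and bears on the polysomal levels and the ratios of ASP shSCR below. Each library was placed on an axis between the mean sub-polysomal profile (0) and the mean polysomal profile (1) of the other conditions, over 11046 genes that had 10 or more counts everywhere. ASP shSCR replicate 1 was at 0.372 in its polysomal library. The range was 0.777 to 1.27 for the 15 other polysomal libraries and −0.114 to 0.162 for the 16 sub-polysomal ones. The sub-polysomal library of the same pellet was at −0.0175, within the range of the others. The calls of collagen chains within ASP shSCR and several differences from it are therefore also given without that pellet. The ratios and counts of other gene lists within ASP shSCR include it.

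The shRNA targets were read first, because they check the labels. Dhps was at 9.55, 14.6, 11.2 and 8.39 CPM in the polysomal libraries of ASP shDHPS and at 16.3, 49.8, 38.7 and 33.4 CPM in those of ASP shSCR. The 2 groups did not overlap, and Dhps was 3.12-fold higher in ASP shSCR (edgeR quasi-likelihood test, adjusted p = 0.0167). In the sub-polysomal libraries it was 4.02-fold higher (adjusted p = 1.113e-08). Grin2d was lower in ASP shGRIN2D, at 2.14, 1.22, 1.18 and 2.402 CPM in the polysomal fraction, against 2.96, 3.06, 4.49 and 3.67 CPM in ASP shSCR. The groups did not overlap there, but the 2.20-fold difference did not pass the threshold of 0.05 over all genes (edgeR, adjusted p = 0.263), nor did the 1.84-fold difference in the sub-polysomal fraction (adjusted p = 0.232). With ASP shSCR replicate 1 left out, Dhps was 3.43-fold (edgeR, adjusted p = 0.00182) and 3.95-fold (7.876e-08) higher in ASP shSCR, and Grin2d 2.11-fold (0.662) and 1.88-fold (0.313). The polysomal Dhps difference no longer passed without ASP shSCR replicate 2 (2.78-fold, edgeR, adjusted p = 0.0546), ASP shDHPS replicate 1 (0.0963) or ASP shDHPS replicate 3 (0.111), and the sub-polysomal one passed with any pellet left out.

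The cells carried epithelial markers and few markers of the cells that make most collagen in tissue. All 8 epithelial markers were found, with Krt8 the most abundant at a mean of 1366 CPM and a summed level of 2028 to 8614 CPM per library. Of 8 fibroblast markers, 3 had a row (Thy1, Pdgfra and Pdpn), summed to 88.9 to 275 CPM per library and were led by Thy1 at 140.5 CPM, whereas Pdgfrb, Dcn, Lum, Fap and Dpt had none. Of 8 mesenchymal markers, 5 had a row and 4 averaged at least 1 CPM, led by Vim at 886 CPM. Snai1, Twist1, Zeb2 and Zeb1 averaged 28.3, 28.1, 7.90 and 0.204 CPM. Blood cell markers summed to 4.83 to 26.5 CPM (2 of 6, led by Cd68 at 11.8 CPM), and of 5 endothelial markers only Pecam1 had a row, at 0.215 CPM. The levels of the epithelial markers match the epithelial origin of the line, and mesenchymal markers were expressed beside them.

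The collagens of the 4T1 spheroids were those of basement membranes rather than of fibrils. Col18a1 (multiplexin, whose C-terminal fragment is endostatin), Col4a1 and Col4a2 together held 70.7% to 84.8% of all collagen counts of a library (median 79.4%). Their mean levels over the 32 libraries were 306.5, 228 and 151 CPM. All collagen chains together took 0.0402% to 0.208% of a library, so the whole class was a small part of the transcriptome.

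Divided by transcript length, which allows different chains to be compared, the order was Col18a1 (54.8 CPM per kb), Col4a1 (34.5), Col4a2 (23.4), Col6a1 (8.63), Col16a1 (8.37), Col8a1 (4.56), Col7a1 (2.29), Col5a1 (2.15), Col4a5 (1.75), Col6a2 (0.751), Col17a1 (0.539), Col4a6 (0.191) and Col11a2 (0.189). The ranges over the 32 libraries overlapped for each pair of neighbours in this order. Each of these 13 chains averaged at least 1 CPM, which is called enough reads here.

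**Figure D1:**
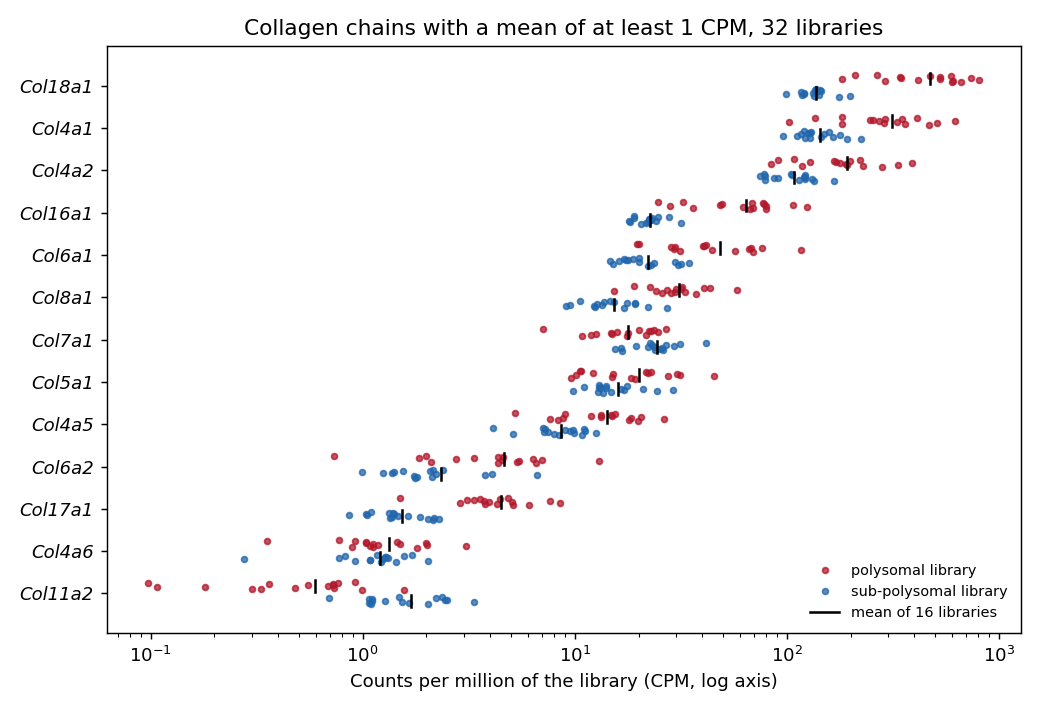
Level of each of the 13 collagen chains with enough reads, in CPM on a log axis, with 1 point per library (red, 16 polysomal libraries; blue, 16 sub-polysomal libraries) and a bar at the mean of the 16. Col18a1, Col4a1 and Col4a2 stand above the other chains, and the polysomal mean is above the sub-polysomal mean in each chain but Col7a1 and Col11a2.

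By family, the basement membrane network had the fullest set, with enough reads for 4 of its 6 chains (Col4a1, Col4a2, Col4a5 and Col4a6). Of 11 fibrillar chains, 2 had enough reads (Col5a1 and Col11a2) and 5 were at a trace. Beaded filament chains had 2 of 6 (Col6a1 and Col6a2), fibril-associated chains 1 of 9 (Col16a1), transmembrane chains 1 of 4 (Col17a1, which anchors epithelial cells in hemidesmosomes), short-chain network chains 1 of 3 (Col8a1), multiplexins 1 of 2 (Col18a1), and the single anchoring fibril chain, Col7a1, had enough reads. Several measured chains lacked a row for their usual partner: Col6a1 and Col6a2 were measured without Col6a3, Col5a1 without Col5a2, and Col1a1 without Col1a2.

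Col1a1, the α1 chain of the collagen I that the study stained in spheroids, was at a trace. Its counts were 0, 6, 2 and 9 in the polysomal libraries of ASP shSCR and 37, 9, 2 and 5 in the sub-polysomal ones. In NoASP shSCR they were 12, 10, 10 and 2, and 7, 7, 0 and 9. They were 9, 3, 2 and 14, and 6, 9, 7 and 12 in ASP shGRIN2D, and 6, 1, 8 and 2, and 7, 5, 17 and 5 in ASP shDHPS. All groups overlapped. The 240 counts of Col1a1 over the 32 libraries gave a mean of 0.401 CPM, and the count of 0 in the polysomal library of ASP shSCR replicate 1 allows up to 0.146 CPM and that in the sub-polysomal library of NoASP shSCR replicate 3 up to 0.152 CPM (3 counts each, counting error only). Col1a1 did not pass in any comparison between conditions (edgeR), where the SEs of its log2 differences were 0.77 to 1.51.

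The other 12 chains at a trace had 0 to 42 counts per library. Col12a1 (median 14 counts), Col20a1 (median 14) and Col27a1 (median 11.5) came closest to the limit, at 0.789, 0.767 and 0.707 CPM, and just above the limit were Col11a2 (1.14 CPM) and Col4a6 (1.27 CPM). Col15a1, the other multiplexin, had a median of 6 counts, Col2a1 and Col8a2 of 3 each and Col6a5 of 2. Col23a1, Col24a1, Col14a1, Col9a3 and Col5a3 were at 0 in 17, 22, 20, 21 and 24 of the 32 libraries.

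The share of the library taken by collagen chains was on average higher in polysomal than in sub-polysomal RNA in each condition. In the polysomal libraries it averaged 0.0966% ± 0.0423 (SD, n = 4) in ASP shSCR, 0.130% ± 0.0550 in NoASP shSCR, 0.124% ± 0.0636 in ASP shGRIN2D and 0.128% ± 0.0398 in ASP shDHPS. In the sub-polysomal libraries it averaged 0.0492% ± 0.00486, 0.0489% ± 0.00557, 0.0487% ± 0.00744 and 0.0569% ± 0.0142 in the same order. The polysomal shares of the 4 conditions overlapped throughout and spread widely within each condition. The sub-polysomal shares had smaller SDs than the polysomal shares in every condition. In bulk RNA such as this, fewer cells that express a chain and less of its RNA per cell cannot be told apart.

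**Figure D2:**
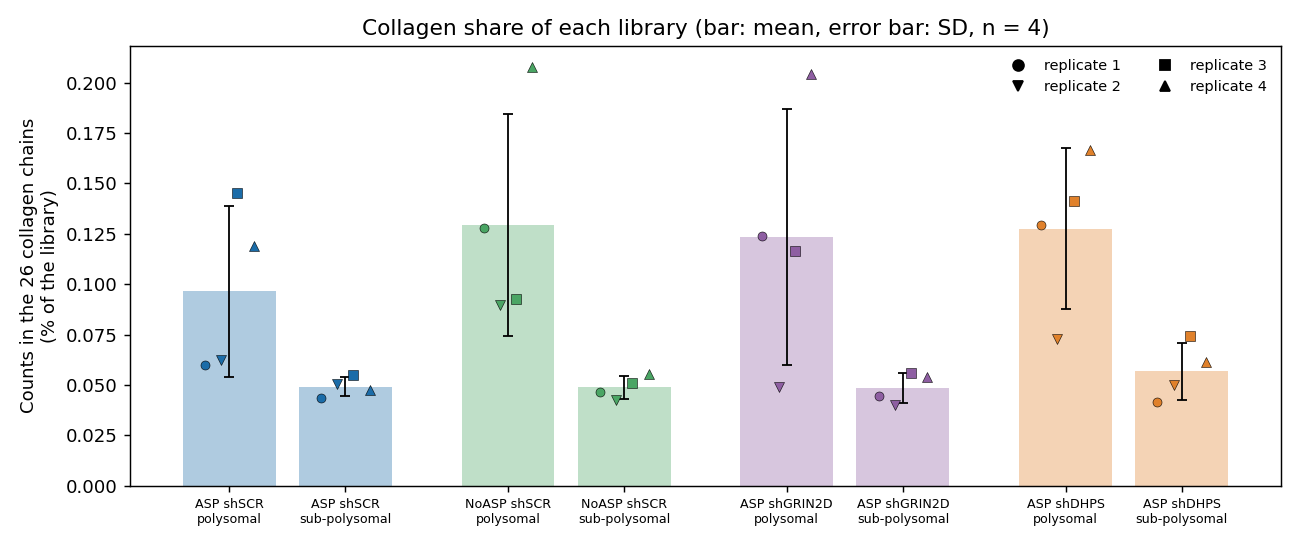
Counts in the 26 collagen chains as a percentage of the library, for the 4 conditions and both fractions (bar, mean; error bar, SD; n = 4; point shape, replicate). Polysomal shares run from 0.0491% to 0.208% and overlap between conditions, and sub-polysomal shares run from 0.0402% to 0.0744%.

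Which chains differed between the fractions was read from the ratio of the 2 libraries of a pellet. The measure is the log2 ratio of polysomal to sub-polysomal counts of the same pellet, fitted for all genes with edgeR. The fit had a term for each pellet, and p values were adjusted over all 17757 genes. Libraries were scaled to each other (TMM normalization), so a ratio is relative to those of the other genes. A shift between fractions shared by all mRNAs would not be seen. Col18a1 was higher in the polysomal fraction in every condition, at 1.18 ± 0.28 (SE; adjusted p = 0.00114) in ASP shSCR, 1.66 ± 0.28 (adjusted p = 1.949e-05) in NoASP shSCR, 1.63 ± 0.28 (adjusted p = 2.728e-05) in ASP shGRIN2D and 1.68 ± 0.28 (adjusted p = 1.838e-05) in ASP shDHPS. Its polysomal level was 387 ± 180 CPM (SD, n = 4), 490 ± 188, 484 ± 260 and 542 ± 169 CPM in that order, and its sub-polysomal level was 139 ± 3.49, 133 ± 11.9, 121 ± 17.03 and 157 ± 37.7 CPM.

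Col16a1 and Col17a1 also passed in every condition, although the calls of both in ASP shSCR and of Col17a1 in ASP shDHPS were lost with some pellets left out, and that of Col16a1 in ASP shSCR also with DESeq2 size factors. Col16a1, a fibril-associated chain, had log2 ratios of 0.85 ± 0.31 (adjusted p = 0.0274), 1.41 ± 0.30 (3.955e-04), 1.38 ± 0.31 (5.530e-04) and 1.35 ± 0.30 (6.377e-04) in ASP shSCR and NoASP shSCR, then in ASP shGRIN2D and in ASP shDHPS. Col17a1 had 1.30 ± 0.38 (0.00642), 1.64 ± 0.37 (6.578e-04), 1.45 ± 0.37 (0.00206) and 1.06 ± 0.35 (0.0160). Col8a1, the short-chain collagen of vessel and corneal basement membranes, passed in the first 3 conditions with 0.85 ± 0.24 (0.00593), 1.07 ± 0.24 (6.604e-04) and 0.95 ± 0.25 (0.00241), and had 0.58 ± 0.24 (0.0537) in ASP shDHPS.

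Col4a1 had log2 ratios of 0.63 ± 0.27 (adjusted p = 0.0616), 1.14 ± 0.27 (9.321e-04), 0.86 ± 0.27 (0.0111) and 0.86 ± 0.26 (0.00924) in the same order of conditions. Col4a2 passed only in NoASP shSCR, at 0.86 ± 0.27 (0.0103), and Col4a5 only in ASP shDHPS, at 0.60 ± 0.24 (0.0463), a call lost with DESeq2. The polysomal level of Col4a2 was 155 ± 64.8, 214 ± 120, 197 ± 103 and 205 ± 68.6 CPM, and its sub-polysomal level 103 ± 18.2, 99.1 ± 25.5, 108 ± 21.8 and 124 ± 37.0 CPM.

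Of the type VI chains, Col6a1 passed in every condition but ASP shSCR. It had log2 ratios of 0.46 ± 0.26 (adjusted p = 0.180) in ASP shSCR, 1.05 ± 0.26 (0.00171) in NoASP shSCR, 0.93 ± 0.26 (0.00503) in ASP shGRIN2D and 1.06 ± 0.26 (0.00156) in ASP shDHPS. Col6a2 passed in NoASP shSCR (1.23 ± 0.46, 0.0300; lost with DESeq2 size factors) and ASP shDHPS (1.14 ± 0.44, 0.0387). Passing in some conditions and not in others is not a difference between them, and that difference is tested further on.

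Col7a1 and Col11a2 lay on the other side. Col7a1 was lower in the polysomal fraction, at −0.91 ± 0.21 (adjusted p = 0.00124) in ASP shSCR, −0.61 ± 0.21 (0.0214) in ASP shGRIN2D and −0.68 ± 0.21 (0.0116) in ASP shDHPS, and had −0.33 ± 0.21 (0.217) in NoASP shSCR. The calls of Col7a1 in ASP shGRIN2D and ASP shDHPS were lost without pellet terms. Col7a1 encodes the longest coding sequence among the 13 chains, 8832 nt, and holds 45 proline-proline-glycine triplets. Col17a1, which passed as higher in every condition, holds 46, and Col11a2 and Col16a1 hold 37 each. A link of length or triplets with the ratios was not tested. Col11a2, a fibrillar chain with a mean of only 21.2 counts, had −1.91 ± 0.52 (0.00437), −1.43 ± 0.50 (0.0211), −2.60 ± 0.54 (2.656e-04) and −1.13 ± 0.51 (0.0784). Its polysomal level was 0.538 ± 0.377, 0.673 ± 0.0811, 0.375 ± 0.287 and 0.796 ± 0.6002 CPM in the 4 conditions, and its sub-polysomal level 1.70 ± 0.774, 1.77 ± 0.795, 1.82 ± 1.05 and 1.46 ± 0.461 CPM.

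Col5a1, the fibrillar chain that starts collagen I fibrils, did not pass in any condition, with log2 ratios of −0.07 ± 0.27, 0.34 ± 0.27, −0.03 ± 0.27 and 0.19 ± 0.27 and adjusted p values of 0.345 to 0.957. It stood at 16.5 ± 6.78, 19.9 ± 8.11, 28.6 ± 14.4 and 15.6 ± 4.43 CPM in the polysomal fraction and at 14.5 ± 2.16, 13.6 ± 2.27, 22.9 ± 5.12 and 12.8 ± 2.13 CPM in the sub-polysomal fraction. Col8a1 stood at 28.7 ± 9.89, 40.8 ± 13.1, 25.1 ± 7.44 and 30.2 ± 4.88 CPM in the polysomal and 13.6 ± 2.08, 17.2 ± 3.05, 11.1 ± 2.12 and 19.7 ± 6.37 CPM in the sub-polysomal fraction. Col4a6, the partner of Col4a5, did not pass in any condition, with log2 ratios of −0.84 ± 0.45, 0.07 ± 0.44, 0.84 ± 0.45 and −0.26 ± 0.44. It was at 0.876 ± 0.452, 1.39 ± 0.454, 1.85 ± 0.921 and 1.23 ± 0.403 CPM in the polysomal fraction and 1.31 ± 0.394, 1.17 ± 0.260, 0.922 ± 0.437 and 1.404 ± 0.471 CPM in the sub-polysomal fraction.

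Counted over all 26 chains, 4 were higher in the polysomal fraction in ASP shSCR (15.4%, where 20.8% of all genes were), 9 in NoASP shSCR (34.6%, all genes 23.7%), 6 in ASP shGRIN2D (23.1%, all genes 23.0%) and 7 in ASP shDHPS (26.9%, all genes 21.8%). Lower were 2 (all genes 18.9%), 1 (20.6%), 2 (20.4%) and 2 chains (21.3%). The chains at a trace were seldom called, apart from Col12a1 (1.50, adjusted p = 0.0410, NoASP shSCR) and Col20a1 (−1.80, adjusted p = 0.0270, ASP shDHPS). The 11 chains with a mean of at least 50 counts can be set beside the 10909 genes of that depth. Of these chains 4, 8, 6 and 7 were called higher (36.4%, 72.7%, 54.5% and 63.6%, where 32.3%, 36.6%, 35.6% and 33.6% of those genes were, so that the share in ASP shSCR was near the background) and 1, 0, 1 and 1 lower (27.1%, 28.3%, 28.2% and 29.8% of those genes). Their median log2 ratio was 0.46, 1.07, 0.86 and 0.86, against 0.12, 0.19, 0.16 and 0.08 for the genes of that depth. These shares describe the chains and were not tested as a set.

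Single pellets moved these counts. Without ASP shSCR replicate 1, the pellet whose polysomal library stood apart, 5 rather than 6 chains were called in ASP shSCR, and Col17a1 (0.90, edgeR, adjusted p = 0.0824) no longer passed. Col18a1 (1.27, adjusted p = 7.518e-04), Col16a1 (0.92, 0.0277), Col8a1 (0.76, 0.0240) and Col7a1 (−0.75, 0.00751) still did. Without its own replicate 4, the count was 4 in place of 6 in ASP shSCR, 6 in place of 10 in NoASP shSCR and 4 in place of 9 in ASP shDHPS. Of the 11 chains, at least 1 pellet left out ended the calls of Col16a1, Col8a1 and Col17a1 in ASP shSCR, of Col4a2 and Col6a2 in NoASP shSCR, of Col4a1, Col6a1 and Col7a1 in ASP shGRIN2D, and of Col4a1, Col4a5, Col6a2, Col7a1 and Col17a1 in ASP shDHPS.

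The pellets of a condition spread widely, and the chains moved together. In ASP shSCR the median log2 ratio of the 11 chains was 0.47, −0.23, 0.99 and 1.05 in replicates 1 to 4, in NoASP shSCR 0.99, 0.52, 0.87 and 1.78, in ASP shGRIN2D 1.21, −0.09, 0.29 and 1.72, and in ASP shDHPS 1.13, 0.19, 0.77 and 1.20. Replicate 2 was the lowest and replicate 4 the highest in each condition. Chain by chain, replicate 2 had the lowest ratio of its condition for 10, 7, 9 and 10 of the 11 chains. Replicate 4 had the highest for 7, 11, 11 and 5. What pellets with the same number share is not given in the labels.

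**Figure D3:**
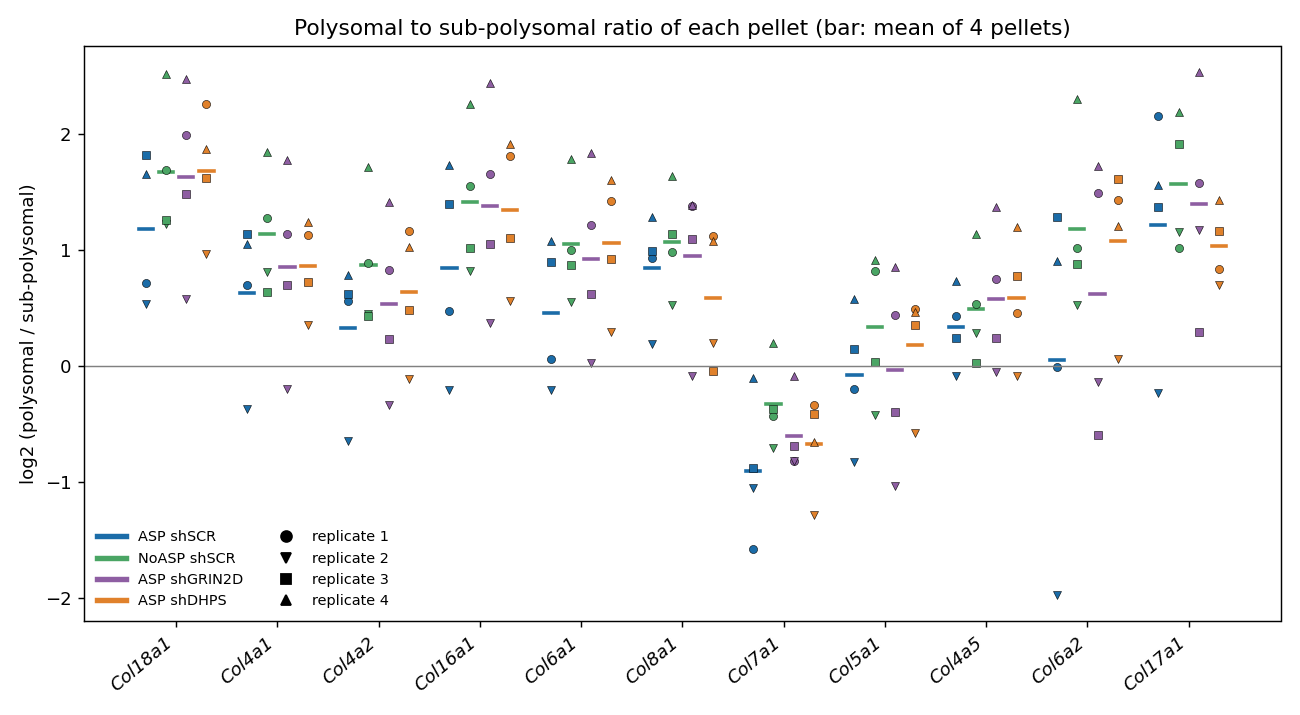
Polysomal to sub-polysomal log2 ratio (prior count of 2) of the 11 chains with a mean of at least 50 counts, for each of the 16 pellets (colour, condition; shape, replicate; bar, mean of 4 pellets). Downward triangles (replicate 2) lie low and upward triangles (replicate 4) high in most chains, and Col7a1 is the chain that lies below 0 in nearly all pellets.

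ASP shSCR was then compared with each other condition, and no chain passed the threshold in any of 9 comparisons (edgeR; 3 of the ratio, 3 of the polysomal level and 3 of the sub-polysomal level). For the ratio, 0 of 26 chains passed against NoASP shSCR and 0 against ASP shGRIN2D (0% of all genes in both), and 0 against ASP shDHPS (0.208% of all genes). At an unadjusted p under 0.05 there were 1, 2 and 1 of 26 chains, each with a mean of fewer than 24 counts. At the same cut there were 343, 571 and 2416 of all 17757 genes. DESeq2 called 0 chains in these 3 comparisons too.

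The fitted ratios of the 11 chains with a mean of at least 50 counts lay lower in ASP shSCR than elsewhere, without any chain passing. All 11 had a lower fitted ratio in ASP shSCR than in NoASP shSCR (median −0.50, range −1.11 to −0.16), all 11 than in ASP shGRIN2D (median −0.25), and 9 of 11 than in ASP shDHPS (median −0.26). The genes of the same depth had medians of −0.02, −0.02 and −0.01, and 53.4%, 52.4% and 50.4% of them had a lower ratio in ASP shSCR. The standard errors of single chains were 0.30 to 0.65. The 3 comparisons share the ASP shSCR pellets, so they are not independent of each other. Without ASP shSCR replicate 1 the medians were −0.44, −0.32 and −0.34. Without ASP shSCR replicate 2, the pellet with the lowest collagen ratios, they were −0.20, 0.09 and −0.14. The median difference from NoASP shSCR became −0.25, with 10 of 11 chains below 0, without NoASP shSCR replicate 4. That from ASP shGRIN2D became 0.019, with 5 of 11 below 0, without ASP shGRIN2D replicate 4. That from ASP shDHPS became −0.16 without ASP shDHPS replicate 1 and −0.51 without ASP shDHPS replicate 2. These directions and sizes thus rest in part on single pellets.

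Among the abundant chains, Col18a1 differed in ratio by −0.49 when set against NoASP shSCR (95% interval −1.24 to 0.27), by −0.46 when set against ASP shGRIN2D (−1.22 to 0.31) and by −0.50 for ASP shDHPS (−1.26 to 0.25). Each interval includes 0, and none shows that the conditions are alike. Col4a1 differed by −0.50 (−1.24 to 0.23), −0.22 (−0.96 to 0.52) and −0.23 (−0.96 to 0.51). When ASP shSCR replicate 1 was left out, the differences were −0.34, −0.33 and −0.38 for Col18a1 and −0.54, −0.28 and −0.29 for Col4a1. The pellet ratios in ASP shSCR were 0.71, 0.53, 1.81 and 1.65 for Col18a1 and 0.69, −0.37, 1.13 and 1.05 for Col4a1. Replicate 2 was the lowest for both chains, so the differences also rest in part on that pellet.

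For the polysomal level, 0 of 26 chains passed relative to NoASP shSCR (0% of all genes), 0 against ASP shGRIN2D (0.0169%) and 0 against ASP shDHPS (0.169%). At an unadjusted p under 0.05 there were 0, 4 and 2 of 26 chains, and 1376, 1608 and 2905 of all 17757 genes. For the sub-polysomal level, 0 chains passed relative to NoASP shSCR (0% of all genes), 0 against ASP shGRIN2D (0.315%) and 0 against ASP shDHPS (1.41%). Here 2, 6 and 5 of 26 chains had an unadjusted p under 0.05, as did 871, 1955 and 2833 of all 17757 genes. DESeq2 called 0 chains in 5 of these 6 comparisons, and Col6a1 and Col5a1 in the sub-polysomal comparison with ASP shGRIN2D.

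**Figure D4:**
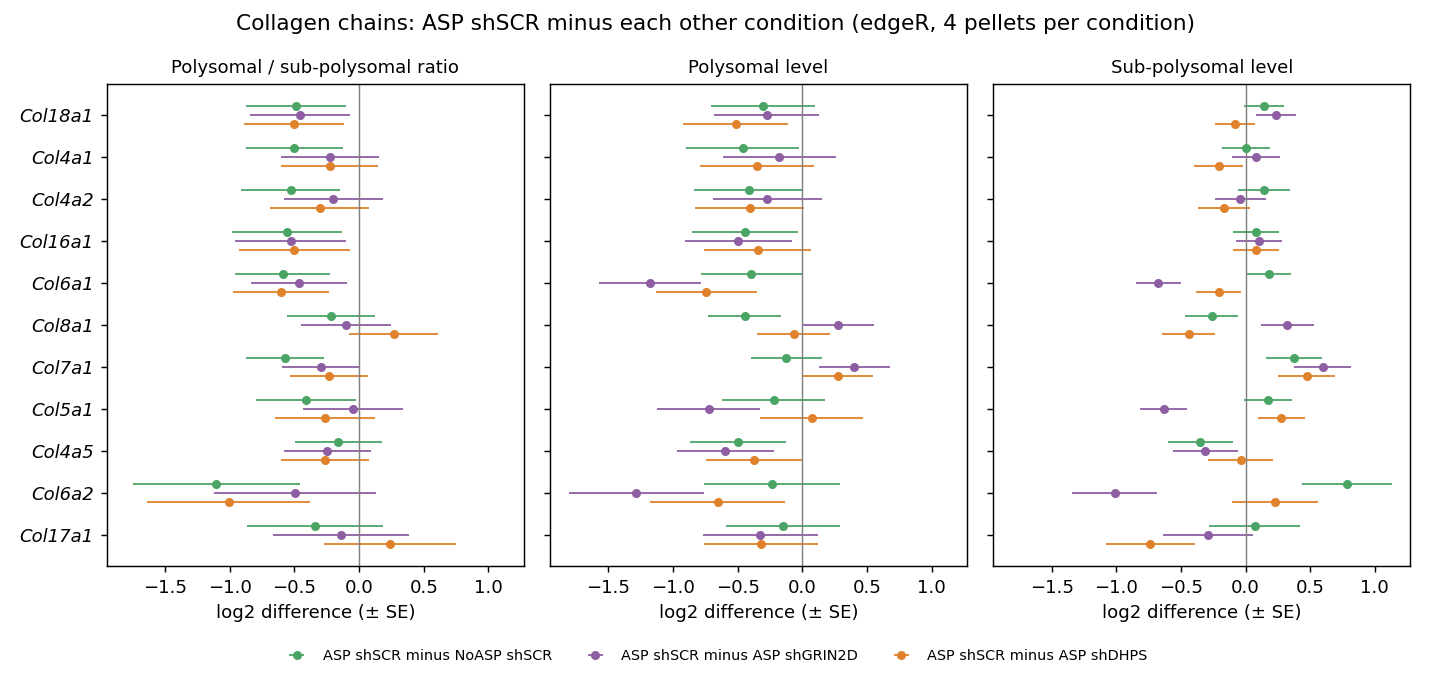
Log2 difference of ASP shSCR minus each other condition (colour) in the polysomal to sub-polysomal ratio, the polysomal level and the sub-polysomal level, for the 11 chains with a mean of at least 50 counts (point, edgeR estimate; bar, SE; 4 pellets per condition). Ratio differences lie left of 0 for most chains, and against ASP shGRIN2D the sub-polysomal differences of Col6a2 (−1.01), Col6a1 (−0.67) and Col5a1 (−0.63) lie left of 0.

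Col6a1, the α1 chain of the beaded filaments, came closest. Its sub-polysomal level was 20.1, 17.2, 18.8 and 17.5 CPM in ASP shSCR, and 29.8, 23.7, 34.8 and 31.8 CPM in ASP shGRIN2D. The 2 groups did not overlap, and all 4 ASP shGRIN2D libraries were higher. The log2 difference of ASP shSCR minus ASP shGRIN2D was −0.67 ± 0.17 (edgeR, adjusted p = 0.0919), which missed the threshold. With DESeq2 it was −0.68 and passed (adjusted p = 0.0174). It also passed with the replicate number added as a block (edgeR, adjusted p = 0.0375), a link between conditions that the labels do not state. It was −0.71 without ASP shSCR replicate 1 (edgeR, adjusted p = 0.145). NoASP shSCR had 17.8, 16.3, 14.6 and 20.1 CPM and ASP shDHPS 15.2, 22.9, 30.8 and 22.2 CPM, and both overlapped ASP shSCR.

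The polysomal level of Col6a1 was 19.7, 20.04, 41.4 and 40.4 CPM in ASP shSCR, 40.6, 29.9, 28.3 and 67.5 CPM in NoASP shSCR, 76.5, 29.4, 66.2 and 117 CPM in ASP shGRIN2D and 44.4, 31.3, 57.0 and 69.5 CPM in ASP shDHPS. The lowest libraries were replicates 1 and 2 of ASP shSCR and the highest was replicate 4 of ASP shGRIN2D. All groups overlapped. The log2 difference was −1.18 ± 0.39 against ASP shGRIN2D (edgeR, adjusted p = 0.318) and −0.74 ± 0.39 against ASP shDHPS (adjusted p = 0.351), and −0.39 ± 0.39 (adjusted p = 0.955) against NoASP shSCR. Without ASP shSCR replicate 1 they were −1.13, −0.70 and −0.37. In the ratio, Col6a1 differed by −0.59 ± 0.37 from NoASP shSCR, −0.47 ± 0.37 from ASP shGRIN2D and −0.60 ± 0.37 from ASP shDHPS (adjusted p = 1, 1 and 0.481). The pellet ratios of Col6a1 in ASP shSCR were 0.06, −0.21, 0.90 and 1.07, so these differences rest in part on the low replicates 1 and 2.

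Col6a2, its partner in the type VI trimer, had the largest log2 difference of the 11 chains in 5 of the 9 comparisons but few reads, 15 to 190 counts per library. Its polysomal level was 1.99, 0.730, 4.61 and 4.35 CPM in ASP shSCR, 3.36, 1.85, 2.75 and 6.38 CPM in NoASP shSCR, 7.05, 4.53, 5.45 and 13.04 CPM in ASP shGRIN2D and 5.32, 2.11, 6.58 and 4.33 CPM in ASP shDHPS. Replicate 2 of ASP shSCR was the lowest of all, and ASP shGRIN2D overlapped ASP shSCR only between 4.53 and 4.61 CPM. The difference from ASP shGRIN2D was −1.28 ± 0.52 (edgeR, adjusted p = 0.427). In the sub-polysomal fraction Col6a2 was at 2.15, 2.39, 1.55 and 2.08 CPM in ASP shSCR, 1.404, 0.995, 1.37 and 1.24 CPM in NoASP shSCR, 2.21, 4.09, 6.68 and 3.78 CPM in ASP shGRIN2D and 1.75, 1.81, 2.13 and 1.77 CPM in ASP shDHPS. ASP shSCR lay above NoASP shSCR without overlap (0.78 ± 0.35, adjusted p = 0.848), and overlapped ASP shGRIN2D (−1.01 ± 0.33, adjusted p = 0.210). In the ratio, Col6a2 differed by −1.11 ± 0.65 from NoASP shSCR, −0.50 ± 0.63 from ASP shGRIN2D and −1.01 ± 0.63 from ASP shDHPS (adjusted p = 1, 1 and 0.494), and the difference from ASP shGRIN2D turned to 0.11 without ASP shSCR replicate 2. The pellet ratios of Col6a2 in ASP shSCR were −0.01, −1.98, 1.28 and 0.90. The differences from NoASP shSCR and ASP shDHPS thus rest in part on replicate 2 too.

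Col5a1 had a sub-polysomal difference of −0.63 ± 0.18 between ASP shSCR and ASP shGRIN2D (edgeR, adjusted p = 0.151; DESeq2, −0.64, adjusted p = 0.0466). This difference also passed in edgeR with the replicate number added as a block, a link that the labels do not state. Col5a1 was at 12.99, 14.1, 17.7 and 13.2 CPM in ASP shSCR and 21.0, 17.2, 29.2 and 24.3 CPM in ASP shGRIN2D, and the groups overlapped in 1 library each. The difference was −0.58 without ASP shSCR replicate 1 (edgeR, adjusted p = 0.304). Against NoASP shSCR and ASP shDHPS the differences were 0.17 ± 0.18 and 0.28 ± 0.18.

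Col16a1 had the largest ratio difference from ASP shGRIN2D among the 11 chains with a mean of at least 50 counts, −0.53 ± 0.43 (edgeR, adjusted p = 1). Its pellet ratios were 0.47, −0.21, 1.39 and 1.73 in ASP shSCR and 1.65, 0.36, 1.05 and 2.44 in ASP shGRIN2D. The groups overlapped, and the difference rests in part on ASP shSCR replicate 2 and ASP shGRIN2D replicate 4. In the polysomal libraries Col16a1 was at 24.7, 32.6, 77.2 and 68.9 CPM in ASP shSCR, 78.0, 49.6, 48.5 and 107 CPM in NoASP shSCR, 79.4, 28.3, 62.0 and 125 CPM in ASP shGRIN2D, and 69.4, 36.0, 66.8 and 80.2 CPM in ASP shDHPS. Replicates 1 and 2 of ASP shSCR and replicate 2 of ASP shGRIN2D were low, and all groups overlapped. The sub-polysomal level was 19.0, 27.9, 24.8 and 18.9 CPM in ASP shSCR, 23.3, 22.3, 22.7 and 22.8 CPM in NoASP shSCR, 22.8, 17.9, 24.1 and 22.2 CPM in ASP shGRIN2D and 18.1, 21.8, 31.8 and 20.6 CPM in ASP shDHPS, with overlap throughout.

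Among the 11 chains with a mean of at least 50 counts, the type IV chains Col4a5 and Col4a1 had the largest differences in polysomal level from NoASP shSCR. Col4a5 was at 5.25, 8.998, 15.5 and 13.3 CPM in the polysomal libraries of ASP shSCR, 14.9, 15.01, 12.0 and 20.4 CPM in NoASP shSCR, 13.3, 8.79, 18.5 and 26.5 CPM in ASP shGRIN2D and 7.67, 8.37, 18.1 and 19.97 CPM in ASP shDHPS. The lowest of these values, 5.25 CPM, is from ASP shSCR replicate 1, the library that stood apart. The difference from NoASP shSCR, −0.49 ± 0.37 (edgeR, adjusted p = 0.904), was within the spread of pellets. Its sub-polysomal level was 4.13, 7.06, 11.1 and 7.28 CPM, then 8.99, 9.84, 11.2 and 9.48 CPM, 7.13, 7.45, 12.6 and 9.93 CPM, and 5.12, 7.98, 10.8 and 8.42 CPM in the same order of conditions. All of these groups overlapped.

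Col4a1 was at 183, 137, 410 and 292 CPM in the polysomal libraries of ASP shSCR, 348, 255, 247 and 620 CPM in NoASP shSCR, 272, 103, 332 and 512 CPM in ASP shGRIN2D and 289, 183, 360 and 469 CPM in ASP shDHPS. The difference from NoASP shSCR was −0.46 ± 0.44 (edgeR, adjusted p = 0.955), with overlapping groups. It rests in part on NoASP shSCR replicate 4, at 620 CPM. Without that pellet, the median polysomal difference of the 11 chains from NoASP shSCR was −0.05, with 4 above 0, in place of −0.39. In the sub-polysomal libraries Col4a1 was at 121, 131, 159 and 129 CPM, 126, 116, 150 and 178 CPM, 112, 96.6, 166 and 146 CPM, and 122, 128, 223 and 193 CPM, again with overlap in each comparison with ASP shSCR.

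Col7a1 had positive sub-polysomal differences, with the mean of ASP shSCR above those of the other conditions. Its sub-polysomal level was 22.8, 41.7, 31.5 and 23.2 CPM in ASP shSCR, 27.0, 29.4, 19.4 and 22.2 CPM in NoASP shSCR, 23.7, 25.7, 16.5 and 15.5 CPM in ASP shGRIN2D and 25.3, 26.2, 24.0 and 16.7 CPM in ASP shDHPS. Replicates 2 and 3 of ASP shSCR were the highest of the 16, and replicates 1 and 4 lay among the others, so the differences rest in part on replicates 2 and 3. The differences were 0.37 ± 0.22 (edgeR, adjusted p = 0.848), 0.60 ± 0.22 (adjusted p = 0.297) and 0.47 ± 0.22 (adjusted p = 0.285). Its polysomal level was 7.09, 27.0, 20.1 and 23.5 CPM in ASP shSCR, where the low value is from the library that stood apart. It was 22.8, 22.4, 15.8 and 24.8 CPM in NoASP shSCR, 14.8, 17.8, 12.6 and 15.03 CPM in ASP shGRIN2D and 21.7, 11.9, 17.6 and 10.9 CPM in ASP shDHPS.

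Col17a1 had the largest sub-polysomal difference from ASP shDHPS among these 11 chains. Its sub-polysomal level was 1.09, 1.33, 1.398 and 1.04 CPM in ASP shSCR, 1.404, 1.05, 0.864 and 1.63 CPM in NoASP shSCR, 1.47, 1.38, 1.86 and 1.345 CPM in ASP shGRIN2D and 2.17, 2.04, 2.29 and 2.14 CPM in ASP shDHPS. All 4 ASP shDHPS libraries were above all 4 of ASP shSCR, and the difference of −0.74 ± 0.34 did not pass (edgeR, adjusted p = 0.288). These levels came from 17 to 47 counts per library. In the polysomal libraries Col17a1 was at 4.86, 1.51, 4.43 and 3.57 CPM, then 3.36, 3.09, 3.74 and 7.64 CPM, 5.07, 3.94, 2.86 and 8.51 CPM, and 4.29, 3.77, 5.13 and 6.09 CPM, with overlap in each comparison with ASP shSCR.

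Genes whose products fold and export collagen chains passed in both directions. Among all genes 20.8%, 23.7%, 23.0% and 21.8% were higher in the polysomal fraction in ASP shSCR and NoASP shSCR, then in ASP shGRIN2D and in ASP shDHPS, and 18.9%, 20.6%, 20.4% and 21.3% were lower. Among the 10909 genes with a mean of at least 50 counts the shares were 32.3%, 36.6%, 35.6% and 33.6% higher and 27.1%, 28.3%, 28.2% and 29.8% lower. Both sets of shares are the background for each list that follows, and no list was tested as a set. Of 19 folding genes with a row, 7, 9, 10 and 11 were higher in that order of conditions, and 4, 4, 2 and 3 were lower, so that the share in ASP shSCR was near that of the genes with at least 50 counts. P4ha1, a catalytic subunit of prolyl 4-hydroxylase, had log2 ratios of 1.14 ± 0.18 (adjusted p = 1.890e-05), 1.21 ± 0.18 (5.385e-06) and 1.29 ± 0.18 (2.293e-06) in the first 3. Mia3, which loads procollagen into transport carriers, had 1.15 ± 0.19, 1.19 ± 0.18 and 1.02 ± 0.18 there. Mia2 was lower, at −1.61 ± 0.27 (NoASP shSCR), −1.84 ± 0.28 (ASP shGRIN2D) and −2.05 ± 0.28 (ASP shDHPS). In ASP shDHPS, the prolyl 3-hydroxylase P3h1 (1.52 ± 0.23) and the collagen chaperone Serpinh1 (1.22 ± 0.21) were among the higher.

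Of 17 other basement membrane and matrix genes, 8, 9, 8 and 7 were higher in the polysomal fraction and none was lower in any condition. Sparc, which binds collagen, had log2 ratios of 1.30 ± 0.22, 1.65 ± 0.22, 1.43 ± 0.22 and 1.56 ± 0.22. Of 7 collagen receptor genes, 4, 3, 4 and 2 were higher and 0, 0, 0 and 1 lower, led by Itgb1 (1.71 ± 0.19, 1.57 ± 0.18, 1.74 ± 0.19 and 1.43 ± 0.18). Of 13 TGF-β inputs and direct targets, 2, 2, 3 and 2 were higher and 5, 4, 6 and 7 lower. The receptor gene Tgfbr2 was among the lower (−1.09 ± 0.17, −1.30 ± 0.17, −1.28 ± 0.17 and −1.25 ± 0.17).

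Of 8 genes of collagen processing and crosslinking, 1, 2, 4 and 4 were higher in the polysomal fraction and 1 was lower in each condition. Of the marker lists, 4, 5, 6 and 7 of 8 epithelial markers were higher and 1, 0, 0 and 0 lower, and 0, 1, 1 and 1 of 5 mesenchymal markers were higher and 1, 1, 1 and 2 lower. Fibroblast markers had 1, 2, 1 and 2 of 3 higher, blood cell markers 1 of 2 in each condition, and Pecam1 did not pass.

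Between conditions, 1 gene of the folding, processing, receptor, matrix and TGF-β lists passed. Pcolce, which enhances the removal of the C-propeptide from fibrillar procollagens, had a sub-polysomal level of 80.1, 70.5, 51.6 and 60.1 CPM in ASP shSCR and of 70.9, 65.8, 49.1 and 66.3 CPM in NoASP shSCR. In ASP shGRIN2D it was 39.2, 30.9, 40.2 and 42.8 CPM and in ASP shDHPS 18.3, 27.0, 31.7 and 29.8 CPM, both below every ASP shSCR library. ASP shSCR was 1.76-fold above ASP shGRIN2D (log2 0.82 ± 0.18, edgeR, adjusted p = 0.0270) and 2.64-fold above ASP shDHPS (log2 1.401 ± 0.18, adjusted p = 1.088e-04). Without ASP shSCR replicate 1 the difference from ASP shGRIN2D no longer passed (log2 0.72, edgeR, adjusted p = 0.114), and it was also lost without ASP shSCR replicate 2 (0.72, 0.115) or replicate 1, 2 or 4 of ASP shGRIN2D. The difference from ASP shDHPS passed with any pellet left out (1.27 to 1.51). Polysomal Pcolce was at 107, 129, 208 and 190 CPM, 284, 166, 169 and 251 CPM, 224, 72.6, 141 and 221 CPM, and 127, 75.7, 98.9 and 117 CPM in the 4 conditions, and did not pass. Within a condition its log2 ratio was 1.06 ± 0.26, 1.62 ± 0.26, 1.79 ± 0.26 and 1.90 ± 0.26.

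Keratin genes passed in the same sub-polysomal comparisons. Of all genes, 0.315% passed against ASP shGRIN2D and 1.41% against ASP shDHPS, in either direction. Of 8 epithelial markers, 1 was higher in ASP shSCR than in ASP shGRIN2D (Krt7, log2 1.14 ± 0.17, edgeR, adjusted p = 9.035e-04) and 4 than in ASP shDHPS (Krt7 1.03 ± 0.17, Krt18 1.00 ± 0.24, Krt14 0.78 ± 0.15 and Krt8 0.74 ± 0.20, adjusted p = 0.00157, 0.0320, 0.00461 and 0.0490). The calls of Krt7 and Krt14 held with any pellet left out. Krt18 was lost without ASP shSCR replicate 2 (0.60, edgeR, adjusted p = 0.232) or any 1 of the 4 ASP shDHPS pellets, and Krt8 without ASP shSCR replicate 1 (0.80, 0.0698), ASP shSCR replicate 2 (0.53, 0.247) or any 1 of 7 pellets of the other conditions. The summed sub-polysomal level of the 8 markers was 3839 ± 681 CPM in ASP shSCR, 3491 ± 429 in NoASP shSCR, 2276 ± 177 in ASP shGRIN2D and 2496 ± 348 in ASP shDHPS (SD, n = 4). No mesenchymal, fibroblast, blood cell or endothelial marker passed between conditions in edgeR. Fibroblast markers summed to 127 ± 22.6, 111 ± 18.5, 123 ± 37.9 and 124 ± 8.82 CPM in the sub-polysomal fraction. The part of the epithelial markers in the levels of Col6a1, Col5a1 and Pcolce was not tested.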

How the data were processed

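The deposited values are raw gene counts from the authors, who trimmed reads with Trim Galore 0.6.6, checked them with FastQC 0.11.9, mapped them to GRCm39 with STAR 2.6.1, quantified them with Salmon 1.4.0, rounded the estimates and removed genes counted in fewer than 3 of the 4 replicates of every group, a filter that all 17757 genes met. The libraries were stranded and the counts are not normalized. Columns of the authors' own comparisons (fold changes, p values and gene set scores) were not used.

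Fits used edgeR 4.0.16 in R 4.3.3 (TMM normalization, quasi-likelihood F-test, two-sided), with 16 pellet terms and, per condition, a log2 ratio of polysomal over sub-polysomal counts. Levels were fitted within 1 fraction over its 16 libraries. Adjusted p values are Benjamini-Hochberg values over all 17757 genes with a threshold of 0.05, SE is the fitted log2 value over the square root of F, and 95% intervals are normal. A prior count of 2 was added for ratios of single pellets. The Methods match the fractions of a pellet, and deviations of matched fractions from their group means correlated with a median of 0.113, 0.311, 0.267 and 0.100 in the 4 conditions, in the order ASP shSCR, NoASP shSCR, shGRIN2D and shDHPS (0.00711, −0.0627, −0.178 and −0.0771 for other pellets). No pair of libraries in a group held the same counts within sampling noise. P values measure the spread between pellets of 1 cell line.

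Codons and lengths came from GENCODE M21 (GRCm38) coding sequences, which stood in for the planned reference proteins and covered 13295 genes and all 26 chains. The steps were tested on simulated data with the same dispersion for every gene and no pellet effects. That test does not cover chains that move together between pellets. Library values are given for Col1a1, Col6a1 and the 2 chains with the largest log2 difference in each comparison between conditions among those averaging 50 counts or more, and of other lists for the up to 3 members with the smallest adjusted p. Some members of the other lists are not reported here. Col5a1, Krt14 and Krt8 beyond that rule were named after their values were seen. Members, lists and rule were chosen with earlier results of these data known. Alternatives were DESeq2 size factors, at least 10 counts in every library, DESeq2 1.42.0's Wald test, fits with and without replicate terms, the compared conditions alone, a prior count of 0.5, other limits for expressed chains, and each pellet left out in turn.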

Additional observations from a re-analysis of the deposited data

Results flagged for a closer look

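Of 132 groups of 4 values examined, 7 held 1 value far from the other 3, and chance alone was expected to give 6.6. The polysomal level of Col18a1 was 292 CPM in replicate 2 of ASP shDHPS, where the others lay between 602 and 664 CPM. The log2 ratio of Col4a2 was −0.65 in replicate 2 of ASP shSCR (others 0.56 to 0.78), and that of Col5a1 was −0.58 in replicate 2 of ASP shDHPS (others 0.35 to 0.48). In replicate 4 of NoASP shSCR, the polysomal level was 392 CPM for Col4a2 (others 128 to 170 CPM) and 7.64 CPM for Col17a1 (others 3.09 to 3.74 CPM). In the sub-polysomal fraction, Col18a1 was at 144 CPM in replicate 3 of ASP shSCR (others 137 to 138 CPM), and Col6a2 was at 2.13 CPM in replicate 3 of ASP shDHPS (others 1.75 to 1.81 CPM).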

How the results depend on the processing

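No collagen chain passed between conditions in any of the 9 comparisons with DESeq2 size factors, with only the compared conditions fitted, without pellet terms (ratios), or with any of the 16 pellets left out (0 to 0). None passed either with at least 10 counts in every library, a limit met only by the 11 chains with a mean of at least 50 counts. The exception was the sub-polysomal comparison of ASP shSCR with ASP shGRIN2D, where 2 chains passed with DESeq2's Wald test (Col6a1 −0.68, adjusted p = 0.0174; Col5a1 −0.64, adjusted p = 0.0466). With the replicate number added as a block, also 2 passed there (edgeR, Col6a1 −0.66, adjusted p = 0.0375; Col5a1 −0.62, adjusted p = 0.0395). The median ratio differences of the 11 chains with at least 50 counts were −0.51, −0.24 and −0.26 with this block. The labels do not say that a number links pellets of different conditions, and same-numbered pellets correlated with a median of 0.125 (ratio), 0.273 (polysomal) and 0.206 (sub-polysomal) over 24 pairs, the lowest being −0.242, −0.176 and −0.250, against −0.030, −0.087 and −0.081 over 72 other pairs. With 1 pellet left out, the chains called within a condition ranged from 4 to 7 in ASP shSCR, 6 to 10 in NoASP shSCR, 6 to 9 in ASP shGRIN2D and 4 to 12 in ASP shDHPS. The ratio difference of Col6a2 between ASP shSCR and ASP shGRIN2D became 0.11 without ASP shSCR replicate 2 and ranged from −0.93 to 0.11 over the pellets left out. Within conditions, calls lost with DESeq2 size factors included Col16a1 in ASP shSCR and Col6a2 in NoASP shSCR. Over all genes, the ratio calls against ASP shDHPS numbered 37, but 0 with DESeq2 size factors, without pellet terms or with compared conditions only, 266 with at least 10 counts, 231 with the replicate block and 664 with DESeq2. For the polysomal level, calls against ASP shDHPS numbered 30, but 554 with DESeq2, 405 with the block and 1 with compared conditions only, and against ASP shGRIN2D 3, but 69, 27 and 0, with 7 under DESeq2 size factors and 6 with at least 10 counts. For the sub-polysomal level, 56 against ASP shGRIN2D became 231 with DESeq2 and 195 with the block, and 251 against ASP shDHPS became 652 and 758. Over the 16 pellets left out in turn, the ratio calls against ASP shDHPS ran from 0 to 159 (without ASP shGRIN2D replicate 1). The polysomal calls ran from 0 to 304 against ASP shDHPS and from 0 to 98 against ASP shGRIN2D, both highest without ASP shSCR replicate 3, and the sub-polysomal calls from 80 to 370 and from 23 to 64. The causes were not tested. The 13 chains at a trace had the fewest counts, and none of them passed between conditions in edgeR.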
